A study of Mus musculus with 6 samples.

Results

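Perp, Rprm and 8 widely used target genes of the tumour suppressor p53 (Cdkn1a, Mdm2, Ccng1, Phlda3, Zmat3, Trp53inp1, Sesn1 and Ei24) were followed in mouse bone marrow cells transduced with MN1. MN1 is a transcriptional coregulator that is often highly expressed in myeloid leukaemia. Each gene was read from the probe set annotated with that symbol alone, and 9 of the 10 genes had one, out of 19938 genes measured in this way. The only probe set naming Cdkn1a, the p21 inhibitor of cyclin-dependent kinases, carries a second symbol, so no value is given for it. The genes were picked with their difference between MN1 and empty vector known, so that difference is given for them as a description, without a test.

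Both groups were marrow cells infected with an MSCV retroviral vector and sorted for reporter fluorescence 72 hours after transduction. The MN1 group (3 arrays) received MSCV-MN1-IRES/YFP, and the control group (3 arrays) received the vector without MN1, which the labels name MSCV-IRES-GFP. The series text calls the reporter YFP and reports 3 independent experiments. The sources used here do not give the strain, age or sex of the donor mice, the species of the MN1 cDNA or the infection rate. RNA was hybridised to one-colour Affymetrix whole-transcript arrays, and every level below is a log2 expression value made with RMA, in which a difference of 1 is a doubling. The array medians lay between 5.82 and 6.01, and 3 arrays per group limit the precision.

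The mouse gene Mn1 was higher on every MN1 array. How far its probe set reads the transduced cDNA is not known, because the species of that cDNA is not given. Mn1 measured 6.47, 6.62 and 6.08 on MN1 replicates 1, 2 and 3 and 5.34, 5.41 and 4.80 on the empty vector replicates, a difference of 1.20 ± 0.21 (moderated SE) with an adjusted p of 0.584 (limma, Benjamini-Hochberg over all genes). The list of marrow markers, among them Ptprc, Spi1 and Kit, had mean levels of 10.90 to 11.28 on the MN1 arrays and 10.97 to 11.38 on the empty vector arrays. Of these 10 markers, 3 were higher in mean with MN1 and 7 lower, with a median difference of -0.06. Single markers differed more, and 2 are named after their values were seen. Cd34 lay wholly above, with a difference of 0.91 ± 0.19 (moderated SE), and Mpo differed by -0.97 ± 0.73 with overlapping groups. Of all 19938 genes, limma called 0 in either direction at an adjusted p below 0.05 (0% each way). At an unadjusted p under 0.05, 832 were higher (4.17%) and 843 lower (4.23%). With median-centred arrays the numbers were 977 and 400, and after quantile normalization 561 and 721.

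p53 is a transcription factor that accumulates when DNA is damaged or growth signals are abnormal, and its targets stop the cell cycle, trigger apoptosis, repair DNA and lower p53 again. In blood stem and progenitor cells it restrains expansion and removes damaged cells. Perp and Reprimo, the product of Rprm, are effectors of cell death and cell cycle arrest, Mdm2 and cyclin G1 belong to its negative feedback, and the remaining members act in stress responses.

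The 9 measured genes did not share 1 direction. Perp and Rprm lay lower on all 3 MN1 arrays, Sesn1 lay slightly higher on all 3, and the 6 other measured genes had higher MN1 means with overlapping groups. Across all genes the MN1 arrays lay wholly below the empty vector arrays for 10.3% and wholly above for 5.71%. These shares stand beside the 2 members below and the 1 above, and nothing is read from them, because the members were picked on this contrast. The median difference was 0.34 over the 9 members and -0.03 over all genes.

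**Figure D1:**
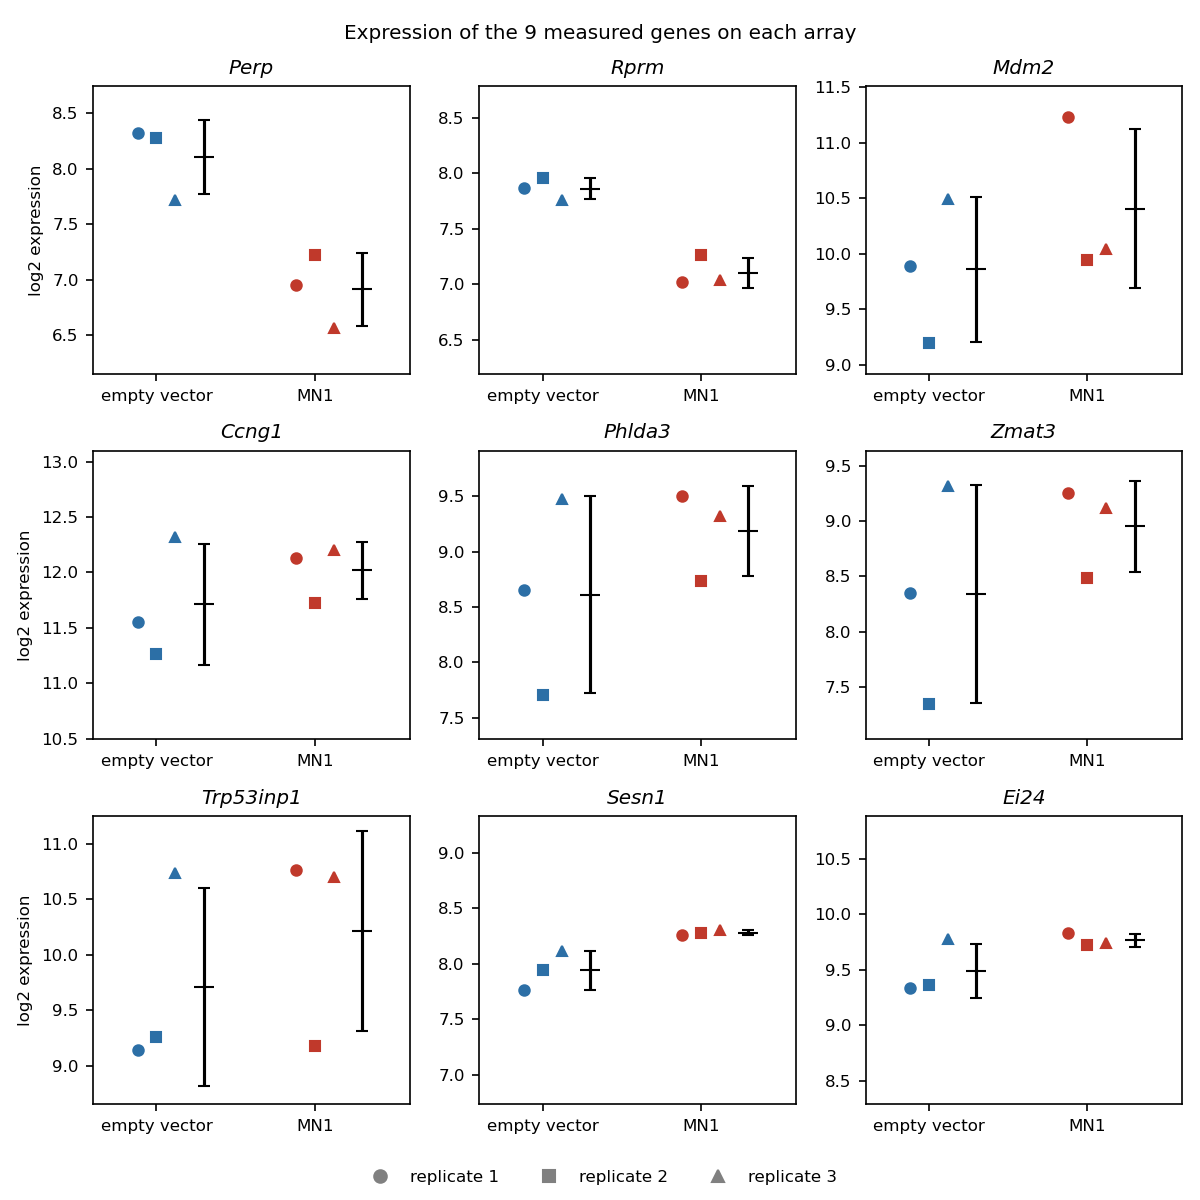
Log2 expression of the 9 measured genes on each array, in 1 panel per gene with the same span of the vertical axis. Symbols are the replicates, and the black marks are the group mean with its SD (n = 3). Perp and Rprm are lower on the MN1 arrays, Sesn1 slightly higher, and the 6 other genes overlap between the groups.

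Perp encodes a tetraspan membrane protein that is needed for p53-dependent apoptosis in some cell types and for desmosomes in stratified epithelia. It measured 6.95, 7.22 and 6.57 on MN1 replicates 1, 2 and 3 and 8.32, 8.28 and 7.72 on empty vector replicates 1, 2 and 3. The lowest empty vector array, replicate 3, lay above the highest MN1 array, replicate 2, so the groups did not overlap. The mean was 6.91 ± 0.33 (SD, n = 3) in the MN1 group and 8.11 ± 0.34 (SD, n = 3) in the controls, a difference of -1.20 ± 0.23 (moderated SE), or 2.29-fold lower. The groups stayed apart after median-centring and after quantile normalization.

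Rprm encodes Reprimo, a small membrane protein induced by p53 that holds cells in the G2 phase when overexpressed. Its levels were 7.02, 7.26 and 7.03 on the MN1 arrays and 7.87, 7.96 and 7.76 on the empty vector arrays. The arrays of each group lay close together and the groups were far apart relative to that spread. The mean was 7.10 ± 0.14 (SD, n = 3) in the MN1 group and 7.86 ± 0.10 (SD, n = 3) in the controls, a difference of -0.76 ± 0.11 (moderated SE), or 1.69-fold lower. Because Rprm separated the groups with little spread within them, the 250 bases before its transcription start (RefSeq, GRCm38.p6, chr2:54085553-54085802, minus strand, overlapping no annotated gene) are shown. They hold no match to the p53 half-site consensus, so no base is in capitals.
Rprm: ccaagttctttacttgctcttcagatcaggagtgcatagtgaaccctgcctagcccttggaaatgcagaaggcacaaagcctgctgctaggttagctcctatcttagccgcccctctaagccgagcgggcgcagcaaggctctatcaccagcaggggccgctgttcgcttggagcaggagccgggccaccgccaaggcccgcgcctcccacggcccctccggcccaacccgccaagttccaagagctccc

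Mdm2 encodes the ubiquitin ligase that binds p53 and marks it for degradation, and p53 in turn induces it. It measured 11.23, 9.95 and 10.04 on the MN1 arrays and 9.89, 9.19 and 10.50 on the empty vector arrays. MN1 replicate 1 was the highest array and empty vector replicate 2 the lowest, while empty vector replicate 3 lay above the other two MN1 arrays. The difference was 0.55 ± 0.45 (moderated SE). It was 0.13 without MN1 replicate 1 and 0.86 without empty vector replicate 3.

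Ccng1 encodes cyclin G1, which recruits a phosphatase that activates Mdm2. It was at 12.13, 11.72 and 12.20 on the MN1 arrays and at 11.55, 11.27 and 12.32 on the empty vector arrays. Empty vector replicate 3 was the highest of all 6 arrays and empty vector replicate 2 the lowest, so the groups overlapped. The difference was 0.31 ± 0.29, which became 0.08 without empty vector replicate 2 and 0.61 without empty vector replicate 3.

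Phlda3 encodes a pleckstrin homology protein that competes with Akt for membrane lipids. It measured 9.51, 8.73 and 9.32 on the MN1 arrays and 8.65, 7.71 and 9.48 on the empty vector arrays. Zmat3 encodes a zinc finger protein that binds RNA and affects splicing. It measured 9.25, 8.49 and 9.11 on the MN1 arrays and 8.35, 7.35 and 9.31 on the empty vector arrays. Both genes were high on MN1 replicates 1 and 3 and empty vector replicate 3 and lowest on empty vector replicate 2. The differences were 0.57 ± 0.45 for Phlda3 and 0.61 ± 0.49 for Zmat3 (moderated SE). Without empty vector replicate 2 both were 0.12, and without empty vector replicate 3 they were 1.01 and 1.10.

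Trp53inp1 encodes a nuclear protein that promotes p53 phosphorylation and also acts in autophagy. It was at 10.76, 9.18 and 10.70 with MN1 and at 9.14, 9.25 and 10.74 with the empty vector. The arrays fell at 2 levels within each group, with MN1 replicates 1 and 3 and empty vector replicate 3 high and the other 3 arrays low. The difference was 0.50 ± 0.58, and it was 0.22 with empty vector replicate 1 left out and 1.02 without MN1 replicate 2.

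Sesn1 encodes sestrin 1, an inhibitor of mTORC1 signalling that also counters oxidative stress. It measured 8.26, 8.28 and 8.30 on the MN1 arrays and 7.76, 7.94 and 8.12 on the empty vector arrays. Every MN1 array exceeded every empty vector array, also after median-centring and quantile normalization, by a small margin over empty vector replicate 3. The means were 8.28 ± 0.02 and 7.94 ± 0.18 (SD, n = 3), a difference of 0.34 ± 0.12 (moderated SE).

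Ei24 encodes a membrane protein of the endoplasmic reticulum that takes part in autophagy. It was at 9.83, 9.72 and 9.75 on the MN1 arrays and at 9.34, 9.36 and 9.77 on the empty vector arrays. Only empty vector replicate 3 reached into the MN1 range. The difference was 0.28 ± 0.14 (moderated SE), or 0.42 without empty vector replicate 3.

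The RefSeq promoter table (GRCm38.p6) held 7 of the 10 members, in 9 windows of 250 bases before a transcription start, and did not list Perp, Zmat3 or Trp53inp1. The p53 half-site consensus, a 10-base motif that reads the same on both strands and was the only motif searched, was found in 5 of these 9 windows and in 7.13% of all 32851 windows. The matches in Mdm2, Ccng1, Sesn1 and Ei24 are shown, with the half-site in capitals, because these members have values here. They lie at chr10:117710910-117710969 (Mdm2, minus strand), chr11:40755437-40755496 (Ccng1, minus strand), chr10:41887241-41887300 (Sesn1, plus strand) and chr9:36797335-36797369 (Ei24, minus strand). The Sesn1 stretch precedes a second start inside the annotated Sesn1 gene, and the Mdm2, Ei24 and Ccng1 stretches overlap no annotated gene. A match is a description of these letters, and binding was not measured.
Mdm2: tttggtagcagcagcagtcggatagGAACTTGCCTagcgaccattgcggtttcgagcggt
Ccng1: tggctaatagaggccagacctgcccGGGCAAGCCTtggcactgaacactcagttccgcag
Sesn1: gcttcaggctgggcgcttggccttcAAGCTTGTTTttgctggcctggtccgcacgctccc
Ei24: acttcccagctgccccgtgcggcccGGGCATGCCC

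Mdm2, Ccng1, Phlda3, Zmat3 and Trp53inp1 had the same 3 highest arrays, which did not follow the groups. For each of these 5 genes they were MN1 replicates 1 and 3 and empty vector replicate 3. For Mdm2 this rested on a small margin, with MN1 replicate 3 at 10.04 and MN1 replicate 2 at 9.95. Ei24 had the same 3 highest arrays, but spanned only 0.50 over the 6 arrays and is not counted among the 5. The Y-linked gene Eif2s3y, expressed in male cells only and looked at after the data were seen, followed a similar order. It measured 8.26, 7.04 and 8.57 on the MN1 arrays and 6.72, 3.43 and 8.24 on the empty vector arrays. The 11 measured B lineage markers, such as Cd79a and Pax5, had mean levels of 7.29, 6.34 and 7.21 with MN1 and 6.41, 5.84 and 7.16 with the empty vector. The single B lineage markers were not alike. Vpreb1 and Igll1 measured 5.12 and 6.05 on empty vector replicate 3, their lowest control array. Eif2s3y and the mean of the B lineage list differed between arrays in an order like that of the 5 genes. They were not alone in marking out these arrays. The mean of the replication and mitosis list was lowest there, at 8.85, 9.77 and 9.75 on MN1 replicates 1 and 3 and empty vector replicate 3. That of the mast cell, basophil and eosinophil list was lowest there too, at 8.40, 8.91 and 9.07. The part of male cells, B lineage cells, dividing cells or mast cells, basophils and eosinophils in the levels was not tested. In bulk RNA, fewer cells of a type and less RNA per cell cannot be told apart.

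Zmat3 and Phlda3 were the closest pair. Likeness was taken as the root mean square distance between 2 log2 profiles over the 6 arrays after each gene's own mean was subtracted. By this measure Phlda3 was the nearest of the 19937 other genes to Zmat3, and Zmat3 the nearest to Phlda3, at a distance of 0.06. This pair was singled out after its values were seen, and all genes of an array share its cells. Among the members, Ei24 lay nearest to Sesn1, at a distance of 0.09, but it ranked 33 of the 19937 other genes. The measure is not scaled, and Sesn1 and Ei24 spanned only 0.54 and 0.50 over the 6 arrays.

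**Figure D2:**
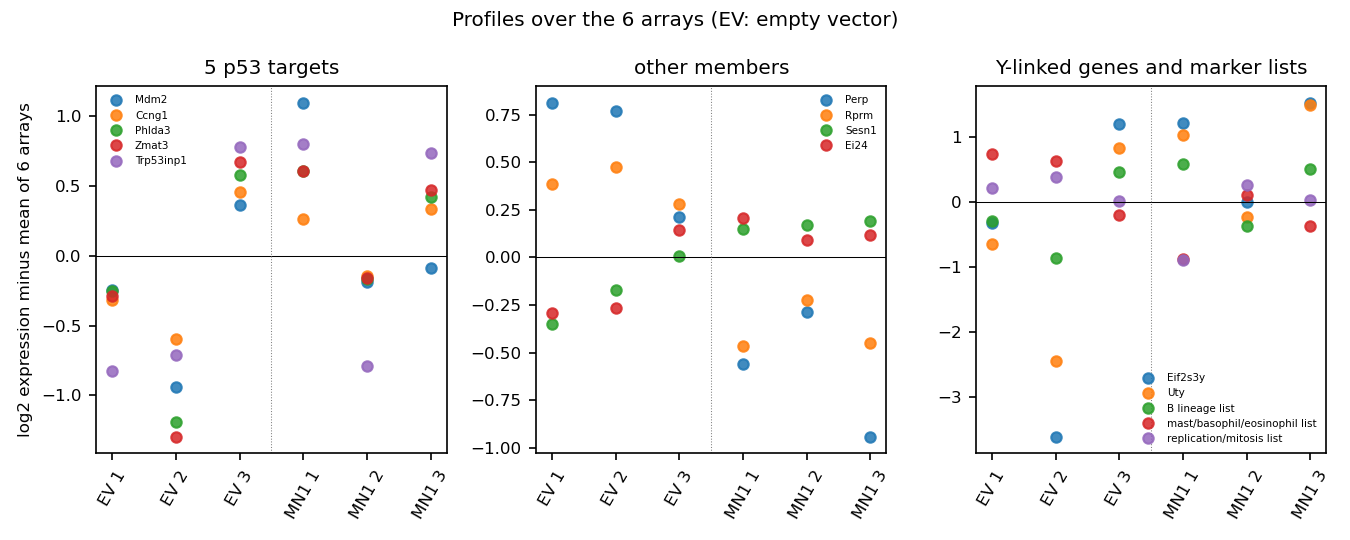
Log2 expression minus the gene's or list's mean over the 6 arrays, for 5 p53 targets (left), the other 4 measured members (middle) and Y-linked genes and mean marker list levels (right), with a separate vertical scale per panel. The 5 targets are high on empty vector replicate 3 and low on empty vector replicate 2, as is the Y-linked gene Eif2s3y, while Perp and Rprm separate the groups.

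Perp and Rprm had other neighbours. The 3 profiles nearest to Perp were those of Adam19, a membrane metalloprotease, Tiam1, an activator of the small GTPase Rac, and Apol7c, an apolipoprotein L gene. Adam19 was at 6.28, 6.68 and 5.84 with MN1 and at 7.83, 7.80 and 6.79 with the empty vector, a distance of 0.16 from Perp. Tiam1 was at a distance of 0.18 and Apol7c of 0.20. Nearest to Rprm were the pepsinogen gene Pga5, at a distance of 0.09, the lymphoid transcription factor gene Ets1, at 0.11, and the bone morphogenetic protein gene Bmp7, at 0.13. Ets1 measured 7.31, 7.73 and 7.62 with MN1 and 8.27, 8.56 and 8.28 with the empty vector. These genes were picked for profiles close to Perp or Rprm on these same arrays. A separation of the groups in them follows from that choice, and nothing is read from it.

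Marker lists of other cell types were set beside the members. Of 17 mast cell, basophil and eosinophil markers, 16 were lower in mean with MN1, with a median difference of -0.68, and limma called 0 of them. Their mean level was 8.40 to 9.37 on the MN1 arrays and 9.07 to 10.01 on the empty vector arrays. Of 14 late granulocyte markers, 13 were lower, with a median of -1.02 and mean levels of 8.89 to 9.20 against 8.69 to 11.31. The mean levels of both lists overlapped between the groups, while the markers Siglecf, Alox15, Cma1 and Mmp9 lay wholly lower on the MN1 arrays (named after their values were seen), Cma1 not after median-centring. Alox15, a lipoxygenase gene of eosinophils, differed by -1.76 ± 0.44 (moderated SE). RMA values hold no zeros or detection calls, so no marker can be given as absent.

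The mean level of the erythroid list lay lower on every MN1 array, by a small margin between MN1 replicate 2 and empty vector replicate 2. Of 9 measured erythroid markers, 7 were lower in mean, with a median of -0.46 and 5 wholly below, or 3 after median-centring. Over all genes 10.3% lay wholly below as deposited. Their mean level was 6.68, 7.22 and 7.10 on the MN1 arrays and 7.64, 7.34 and 7.41 on the empty vector arrays. T and NK markers were lower for 8 of 11, with a median of -0.35 and mean levels of 5.80 to 6.16 against 6.26 to 6.56, which overlapped after median-centring.

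Monocyte and macrophage markers were higher for 9 of 13, with a median of 0.80 and 4 wholly above, beside 5.71% of all genes. Their mean level was 9.94 to 10.72 with MN1 and 9.48 to 9.77 with the empty vector. All 8 megakaryocyte and platelet markers were higher, with a median of 0.93 and overlapping mean levels. Dendritic cell markers were lower for 8 of 13 (median -0.11), or 7 after median-centring or quantile normalization. Stromal and endothelial markers were lower for 10 of 12 (median -0.12), or 9 after either. As deposited, each of these 2 lists had 1 marker wholly above and 4 wholly below, beside 5.71% and 10.3% of all genes. Those above, named after their values were seen, were Flt3 (1.83 ± 0.39) and Kdr (1.74 ± 0.68). None of the markers in these lists was called by limma (0 at an adjusted p under 0.05), and the part of such cells in the members' levels was not tested.

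Perp is also known from epithelia, so desmosome and epithelial markers were measured beside it. Of 15, 5 were higher in mean and 10 lower, with a median difference of -0.15 and 0 called by limma. Their mean level was 5.57 to 5.84 with MN1 and 5.59 to 6.01 with the empty vector. The desmosomal genes Dsp and Dsg3 differed by 0.06 ± 0.28 and 0.04 ± 0.11 (moderated SE), and Dsg3 was dim, with group means of 4.00 and 3.96. Other desmosomal genes, named after their values were seen, differed more. Pkp2 and Jup differed by 0.83 ± 0.37 and 0.44 ± 0.40, and Pkp1 by -0.28 ± 0.13. Krt8, a simple epithelial keratin, differed by -0.58 ± 0.17, and the E-cadherin gene Cdh1 by -1.37 ± 0.89. Cdh1 ran from 7.17 to 8.47 with MN1 and from 7.22 to 10.45 with the empty vector, so its groups overlapped.

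Relatives of the members differed in both directions. Pmp22, a tetraspan gene of the family to which Perp is related, measured 10.55, 9.70 and 9.91 with MN1 and 8.82, 7.70 and 9.65 with the empty vector. Its MN1 arrays lay above the empty vector arrays, with a difference of 1.33 ± 0.49 (moderated SE), opposite in sign to Perp. The related genes Emp1, Emp2, Emp3 and Tmem47 differed by 0.27 ± 0.62, -0.17 ± 0.14, -0.12 ± 0.12 and 0.01 ± 0.11. Rprml, the Rprm paralog, averaged 6.06 ± 0.07 (SD, n = 3) in the MN1 group and 6.29 ± 0.11 (SD, n = 3) in the controls, with every MN1 array below every control array and a difference of -0.23 ± 0.10 (moderated SE).

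Mdm4, the Mdm2 partner that masks the p53 activation domain, measured 9.64, 9.01 and 9.75 with MN1 and 8.78, 8.79 and 9.25 with the empty vector. Its difference was 0.53 ± 0.23, with overlapping groups. The cyclin gene Ccng2 differed by -0.22 ± 0.41, and Trp53inp2 by -0.34 ± 0.30. Among sestrins, Sesn2 differed by 0.21 ± 0.34 and Sesn3 by -0.23 ± 0.50. Phlda1 and the imprinted gene Phlda2 differed by -0.57 ± 0.62 and -0.40 ± 0.13, the latter with the MN1 arrays wholly below as deposited and overlapping after either other scaling.

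Of the matrin-type zinc finger genes, Zmat1, Zmat2, Zmat4 and Zmat5 differed by 0.06 ± 0.11, 0.10 ± 0.15, -0.15 ± 0.11 and -0.13 ± 0.14. The p21-related inhibitor genes Cdkn1b and Cdkn1c differed by 0.11 ± 0.30 and 0.06 ± 0.15. In all, 9 of 19 relatives were higher in mean and 10 lower, with a median of -0.12, and limma called 0 of them at an adjusted p under 0.05. At an unadjusted p under 0.05, 1 was higher and 1 lower, beside 4.17% and 4.23% of all genes.

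**Figure D3:**
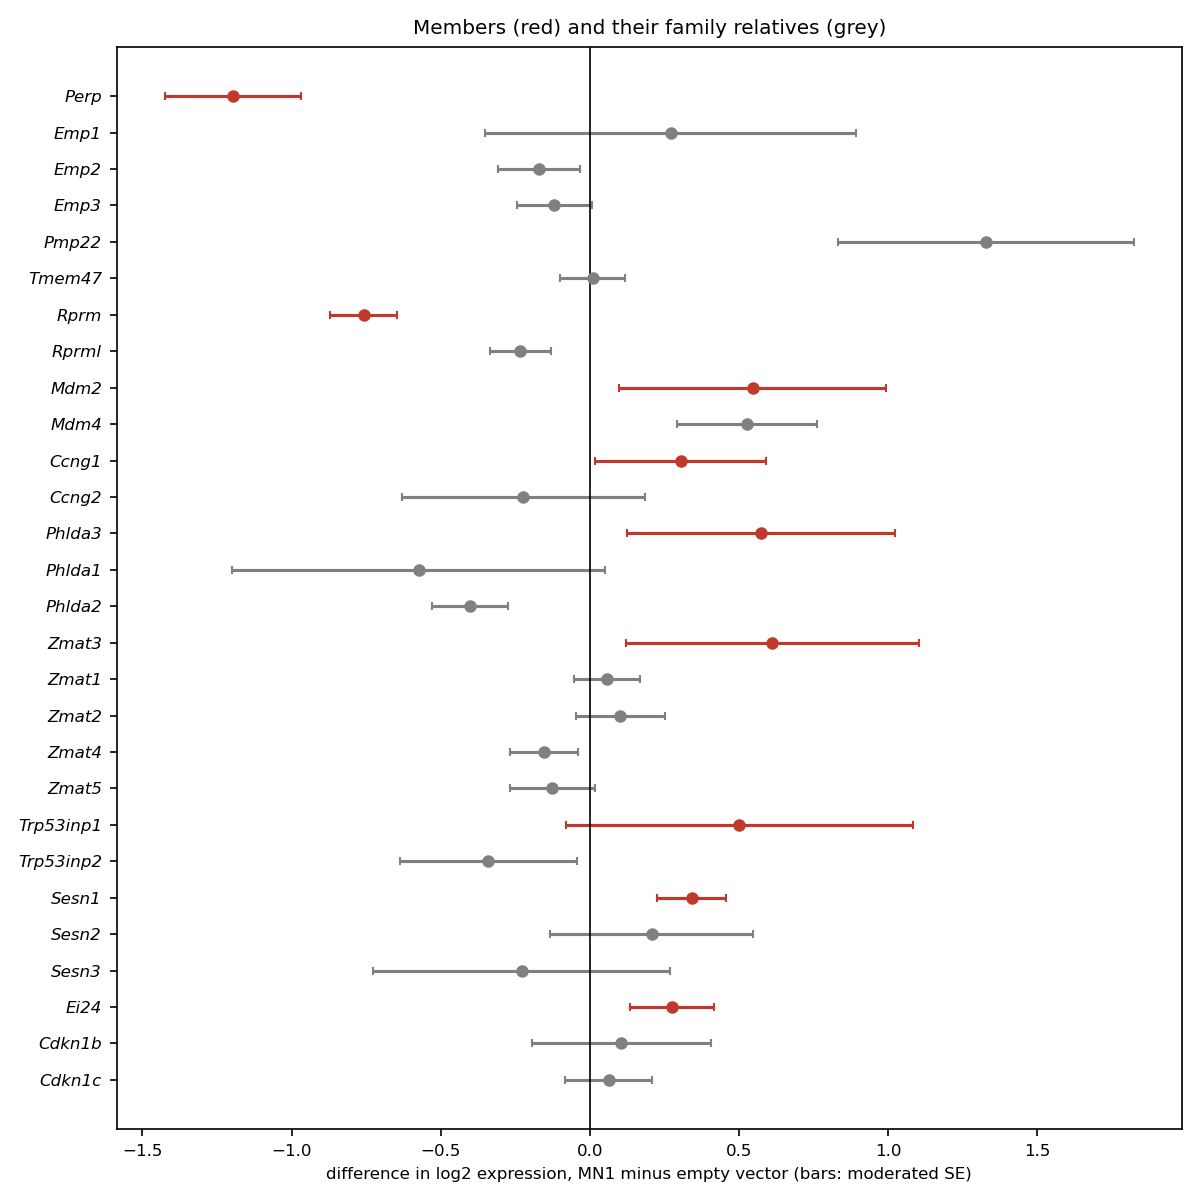
Difference in log2 expression, MN1 minus empty vector, for the measured members (red) and their family relatives (grey), grouped by family. Bars are the moderated SE, with 3 arrays per group. Perp and Rprm lie farthest below 0 and the Perp relative Pmp22 farthest above.

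Of the other p53 pathway genes, 63 of 70 listed were measured, and limma called 0 in either direction at an adjusted p below 0.05 (smallest adjusted p 0.584). At an unadjusted p under 0.05, 2 were higher and 1 lower, beside 4.17% and 4.23% of all genes. By sign, 41 were higher in mean with MN1 and 22 lower, with a median difference of 0.08, against 8628 higher and 11310 lower of all genes. After quantile normalization the split of the 63 was 34 to 29 and the median 0.02. The median was 0.00 without MN1 replicate 3 and 0.15 without empty vector replicate 3. Trp53 itself and Bax, the apoptosis effector, are not analysed here.

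Among p53 regulators, 13 of 17 were higher in mean and 4 lower, with a median of 0.12. The split was 15 and 2 after median-centring, and 12 and 5 after quantile normalization, with a median of 0.07. Ppp1r13b, which directs p53 to apoptosis genes, measured 8.73, 8.36 and 8.18 with MN1 and 7.89, 7.52 and 8.20 with the empty vector. Its difference, the largest of the 17, was 0.55 ± 0.22 (moderated SE), with overlapping groups. Cdkn2a, whose ARF product inhibits Mdm2, was named after its values were seen. It measured 6.65, 7.00 and 7.50 with MN1 and 7.51, 7.56 and 7.55 with the empty vector, a difference of -0.49 ± 0.21.

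Among arrest genes, 3 of 9 were higher in mean and 6 lower, with a median of -0.12. The polo-like kinase gene Plk2 differed by 0.75 ± 0.91, and Gadd45a, a DNA damage response gene, by -0.46 ± 0.52. Plk2 ran from 9.09 to 11.83 over the MN1 arrays and from 8.12 to 10.68 over the empty vector arrays, a wider spread than its difference.

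Of 12 apoptosis genes, 9 were higher in mean and 3 lower, a split that turned to 5 and 7 after quantile normalization. Eda2r, a TNF receptor family gene induced by p53, measured 7.87, 6.24 and 7.10 with MN1 and 5.87, 4.84 and 7.12 with the empty vector. It followed the pattern of Zmat3, with MN1 replicates 1 and 3 and empty vector replicate 3 high and empty vector replicate 2 lowest. Its difference was 1.13 ± 0.65, and that of the death receptor gene Tnfrsf10b 0.51 ± 0.40. The BH3-only genes Bbc3 (Puma) and Pmaip1 (Noxa), main triggers of p53-dependent death in blood cells, differed by 0.09 ± 0.30 and -0.32 ± 0.21.

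Of 7 DNA repair genes, 6 were higher in mean, with a median of 0.12. The translesion polymerase gene Polk differed by 0.57 ± 0.25, the nuclease gene Ercc5 by 0.40 ± 0.20 and the damage sensor gene Ddb2 by 0.12 ± 0.22. Of 7 metabolism and autophagy genes, 3 were higher and 4 lower, or 4 and 3 after median-centring. Trp53inp2 is given above, and Tigar, a regulator of glycolysis, differed by -0.30 ± 0.26. In the last group, of feedback and other targets, 7 of 11 were higher and 4 lower, or 5 and 6 after quantile normalization. Psrc1, a spindle protein gene, differed by 0.82 ± 0.47 with overlapping groups, and the long noncoding RNA gene Pvt1 by 0.35 ± 0.34. Genes of replication and mitosis, which p53 activity lowers through p21, were lower in mean with MN1 for 21 of 21, with a median of -0.41 and 0 called. Their mean level was 8.85, 9.99 and 9.77 with MN1 and 9.95, 10.13 and 9.75 with the empty vector, so MN1 replicate 1 stood apart as the lowest array.

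**Figure D4:**
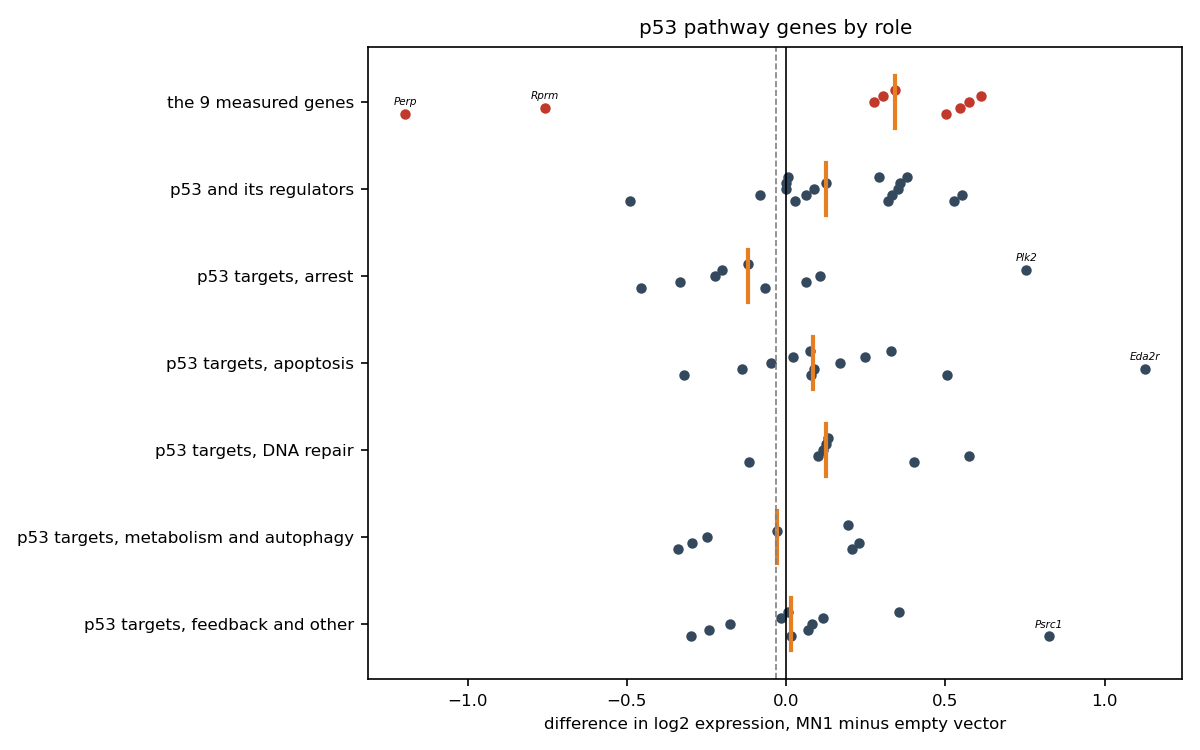
Difference in log2 expression, MN1 minus empty vector, for the 9 measured members (red) and 63 other p53 pathway genes by role (dark). Orange bars are the median of each row, and the dashed line is the median of all genes, -0.03. Perp and Rprm lie to the left of every other gene shown, and Eda2r farthest to the right.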

How the data were processed

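The authors deposited 1 log2 value per probe set and array, computed with RMA according to the submitters' processing notes, from arrays that received 200 ng of total RNA each per the labels' protocols. The sources used here do not state the RMA version, its settings or the log base. Values between 2.29 and 14.80 fit a log2 scale, and RMA understates changes of dim genes. All 6 columns were used and 0 left out. Of 35557 probe sets, 21789 carry 1 symbol in the 2016 platform annotation, 1621 several and 12147 none. The brightest probe set of each gene was kept (999 genes had several), leaving 19938 genes. No member with a value had a second probe set.

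limma 3.58.1 in R 4.3.3 (lmFit, eBayes, two-sided, Benjamini-Hochberg over all genes, threshold 0.05, no block) compared the 3 MN1 with the 3 empty vector arrays, with 4 residual and 2.43 prior degrees of freedom. The fit was tested on simulated data. Members, lists and rules were chosen with earlier results of these data known. Genes named are all members and relatives, the 2 largest differences per pathway list, a fixed few (Mdm4, Bbc3, Pmaip1, Gadd45a, Ddb2), markers and the 3 nearest profiles, and genes said in the text to be named after their values were seen. Of 70 other pathway genes, 1 lies only on a probe set with several symbols and 6 are not named under the symbols used. Promoters came from a RefSeq table, GRCm38.p6. Alternatives were the replicate block, median-centring, quantile normalization, a filter on the dimmest 40%, the mean of probe sets, every probe set, array weights, eBayes with a trend and robust setting, leaving out each array, and a threshold of 0.1.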

Additional observations from a re-analysis of the deposited data

How the results depend on the processing

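At an adjusted p under 0.05, 0 genes were called with all arrays or under any alternative, and the smallest adjusted p over them was 0.0989, without MN1 replicate 1. A threshold of 0.1, tried with all arrays, also called 0. The number of genes at an unadjusted p under 0.05 was 1675, and 850 with the dimmest 40% of genes left out and 2557 over every probe set, where fewer and more features were tested. It ran from 906 to 1953 when 1 array was left out, with 906 without empty vector replicate 2, and the cause was not tested. Perp ran from -1.39 to -1.02 and Rprm from -0.84 to -0.71 when 1 array was left out. With the replicate block, 0 genes were called, 1980 passed an unadjusted p under 0.05 and the median of the 63 pathway genes was 0.08. Same-numbered arrays correlated at 0.13, 0.07 and 0.32 in their deviations from the group means across genes. MN1 replicate 2 was closest to empty vector replicate 1 (0.44). With 3 arrays per group these values cannot decide whether equal numbers mark a shared experiment. The labels do not say so, and the main fit therefore has no block. Y-linked genes differ between arrays and no label gives the donors' sex, no detection calls were available, and 3 arrays per group limit every value.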

Other observations

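After Phlda3, the profiles nearest to Zmat3 over the 6 arrays were those of Ralgps2, a regulator of the small GTPase Ral, at a distance of 0.12, and Ddias, a gene of DNA damage survival, at 0.16. Ralgps2 measured 7.40, 6.79 and 7.24 with MN1 and 6.62, 5.81 and 7.42 with the empty vector. Ddias measured 8.97, 8.44 and 9.13 with MN1 and 8.27, 7.60 and 9.28 with the empty vector. Both were high on MN1 replicates 1 and 3 and empty vector replicate 3 and lowest on empty vector replicate 2, like Zmat3. Nearest profiles are picked on these same arrays, so a shared order follows from that choice and nothing is read from it. Nearest to Trp53inp1 was Marcks, a protein kinase C substrate gene, at a distance of 0.13. It measured 10.17, 8.60 and 10.14 with MN1 and 8.61, 8.33 and 10.10 with the empty vector.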
